A study of Mus musculus with 18 samples.

Results

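Regulatory DNA lies not only beside genes but also in the long stretches between them, where enhancers, promoters of long non-coding RNAs and insulator sites can be found far from any coding sequence. In macrophages, lineage factors such as PU.1 keep enhancers open, and Toll-like receptor ligands and TNF act through NF-kB, AP-1 and interferon regulatory factors to open further sites or close existing ones. The regions described here are the 4975 of 53796 accessible regions (9.25%) whose midpoint lay over 50 kb from the body of every protein-coding gene in the mouse build GRCm38 (mm10), called far regions below. No measured value entered that choice, and a nearest gene names a region's position without showing which gene the region acts on.

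ATAC-seq reads out open chromatin, because a transposase cuts and tags DNA where nucleosomes leave it exposed. The cells were bone marrow-derived macrophages of wild-type C57BL/6 mice, 6 to 12 weeks old. All cultures were grown with M-CSF (20 ng/mL), replated on day 7, given a first treatment for 4 h and then a second treatment for 4 h. The groups with 2 stimuli were CL (CpG then LPS), PL (polyI:C then LPS), CT (CpG then TNF) and PT (polyI:C then TNF). The groups with medium first were MC (then CpG, a DNA ligand of Toll-like receptor 9, 100 nM), ML (then LPS, a bacterial cell wall component, 1 ng/mL), MP (then polyI:C, a double-stranded RNA mimic, 1 µg/mL), MT (then the cytokine TNF, 10 ng/mL) and MM (then medium again). Each group had 2 libraries, and the labels name neither animals nor cultures for them, so the p-values measure the spread between libraries, which may be technical. A first stimulus had been added 8 h before harvest in CL, PL, CT and PT, whereas the same agent had been added 4 h before it in MC and MP.

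Values are log2 CPM, the reads of a region scaled to library size on a log2 scale, so a log2 difference of 1 is a factor of 2. A region without reads stands at -0.70. Regions passed the test, and are said to rise or fall, at an adjusted p under 0.05 in limma over all 53796 regions. Libraries held 3141641 to 5986835 reads in regions, with a median of 33 to 62 reads per far region. The 2 MP libraries differed by about as much as counting noise over the regions (chi-square per region 1.0035, p = 0.285). They were counted as 1 sample, so differences with MP carry a larger standard error. All 9 macrophage markers examined, among them Csf1r (5.92 log2 CPM at its strongest region) and Spi1 (5.36), had an accessible region within the gene or 1 kb of it. For T and NK cells 1 of 5 markers had one, for B cells 1 of 5, for neutrophils 2 of 5, for erythroid cells 1 of 3 and for stroma and endothelium 2 of 5. Levels overlapped between cell types. The strongest regions of the macrophage markers averaged from 3.83 (Mertk) to 5.92 log2 CPM. Those of the others averaged 3.20 (Lck), 2.93 (Ebf1), 5.19 (Camp), 3.12 (Ltf), 4.14 (Klf1), 5.10 (Pdgfrb) and 5.51 (Cdh5).

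The libraries of PT stood apart from one another (Pearson r = 0.919 across regions, against 0.9578 to 0.9727 for the other groups). PT replicate 2 also had the highest far regions of any library. Its median far region equalled the median of all other regions (difference 0.0), whereas in the remaining 17 libraries the far median lay 0.186 to 0.374 log2 CPM below. The lowest values were those of ML, 0.373 and 0.374 below the other regions, against 0.273 and 0.297 below in MM. Because ML is compared with MM and in turn serves as the baseline of CL and PL, this level moved with several of the comparisons, and its part in them was not tested.

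**Figure D1:**
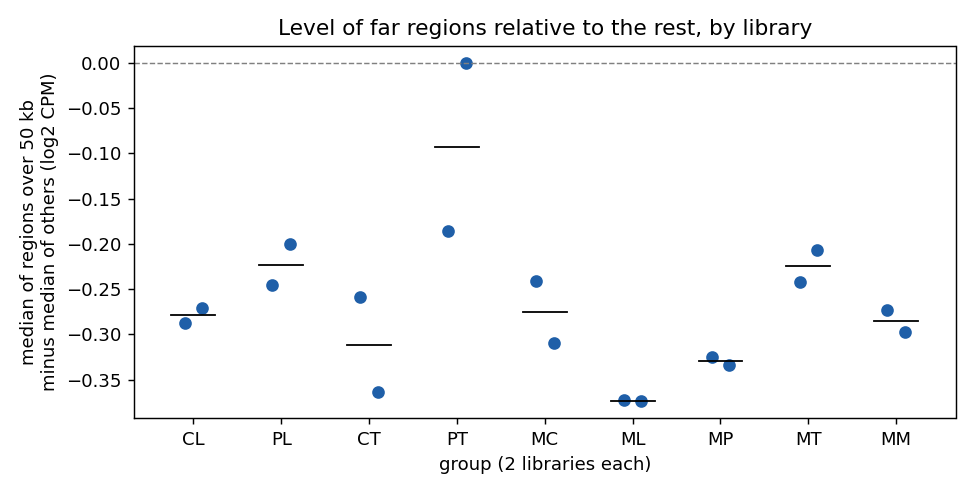
Median log2 CPM of the far regions minus the median of all other regions, in each of 2 libraries (points) and as their mean (bar) for 9 groups. PT replicate 2 lies at 0.0, the ML libraries at -0.373 and -0.374, and the MM libraries at -0.273 and -0.297.

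The far regions were typically 108 kb from a coding gene (median), with an upper quartile of 188 kb and the most remote at 1816 kb. Their level was close to that of other sites away from gene ends. The median was 3.43 log2 CPM in far regions, against 3.48 in regions between genes within 50 kb, 3.51 inside genes and 4.46 within 1 kb of a gene end. Far regions took 6.89% to 8.12% of the reads of a library. The regions just inside the distance limit, near Lca5 (50008 bases), B3gnt2 (50030) and Fancl (50036), averaged 2.55, 2.73 and 2.84 log2 CPM. Those just outside it, near D16Ertd472e (49976), Gpc5 (49964) and Gm46353 (49950), averaged 4.75, 5.58 and 3.37.

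Far regions were spread unevenly. They made up 15.7% of the regions on chromosome 13 and 14.8% on chromosome 10, against 4.36% on chromosome 7 and 4.6% on chromosome 19. Many stood in rows: neighbours no more than 12 to 13 kb apart formed 466 runs of 3 or more, which held 1889 members, while 1926 members stood alone. The longest run had 18 members over 46.6 kb beside Tomm20, a receptor of the mitochondrial import pore. Next came 14 members over 37.1 kb beside Cebpb, which encodes a transcription factor of inflammatory macrophages, and 13 over 57.7 kb beside Tmco5. In all, 1449 coding genes were nearest to at least 1 far region. The 19 genes with 20 or more members held 515 of them, among them Adgrl2 (47), Klf6 (42), Myc (30), Marcks (29), Zeb2 (29), Id2 (28), Cited2 (28) and Klf4 (26). Klf6, Myc, Zeb2, Id2 and Klf4 encode transcription regulators.

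Of the 4975 far regions, 1341 (27.0%) lay inside a gene of another type, and 1236 of these were in long non-coding RNA genes. A further view of their sequence comes from promoters, since 113 far regions overlapped by at least 150 bases the promoter of an annotated RNA gene in the RefSeq table for GRCm38.p6 (129 promoters). Promoters are taken there as 250 bases before to 50 bases after the gene start. The 4 promoters that follow, on the strand of their gene, are shown because their regions had a large rise, the strongest member of the run at Cebpb, a fall, and the highest level of all far regions. Capitals mark matches, on either strand, to TGANTCA (AP-1), GGG and CC with any 5 bases between them (NF-kB), GAAA and GAAA with any 2 bases between them (ISRE, the element of interferon regulatory factors), GAGGAAGT (PU.1) or TTGCNNCAA (C/EBP). Overlapping matches run together.
Gm29010 promoter, chr2:128433460-128433759, plus strand: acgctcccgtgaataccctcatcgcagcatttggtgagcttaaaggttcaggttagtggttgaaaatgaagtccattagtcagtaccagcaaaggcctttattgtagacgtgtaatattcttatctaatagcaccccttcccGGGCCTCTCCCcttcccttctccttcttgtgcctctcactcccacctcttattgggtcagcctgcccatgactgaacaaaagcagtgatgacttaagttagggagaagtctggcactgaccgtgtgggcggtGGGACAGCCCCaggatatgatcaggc
Gm14321 promoter, chr2:167777241-167777540, plus strand: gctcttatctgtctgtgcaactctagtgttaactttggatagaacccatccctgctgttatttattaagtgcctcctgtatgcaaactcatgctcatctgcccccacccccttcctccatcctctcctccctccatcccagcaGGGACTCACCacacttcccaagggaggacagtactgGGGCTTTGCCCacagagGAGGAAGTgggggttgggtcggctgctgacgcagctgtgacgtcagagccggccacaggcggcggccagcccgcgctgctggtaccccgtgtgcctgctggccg
Gm31482 promoter, chr12:117465874-117466173, plus strand: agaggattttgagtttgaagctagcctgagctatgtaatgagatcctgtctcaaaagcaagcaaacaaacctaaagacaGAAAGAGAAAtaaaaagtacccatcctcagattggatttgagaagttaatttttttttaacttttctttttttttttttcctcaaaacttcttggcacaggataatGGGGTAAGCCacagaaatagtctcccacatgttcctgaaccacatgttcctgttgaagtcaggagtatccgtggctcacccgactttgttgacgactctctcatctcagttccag
Gm26901 promoter, chr1:7398047-7398346, minus strand: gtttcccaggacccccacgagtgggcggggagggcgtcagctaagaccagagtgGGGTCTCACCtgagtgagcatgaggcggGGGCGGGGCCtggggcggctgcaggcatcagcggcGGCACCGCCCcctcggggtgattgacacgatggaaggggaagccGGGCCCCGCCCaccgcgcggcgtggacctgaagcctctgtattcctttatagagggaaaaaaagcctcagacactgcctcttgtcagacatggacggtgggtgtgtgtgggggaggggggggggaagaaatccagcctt

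The region at the Gm29010 promoter (chr2:128433484-128433985, 157 kb from Spdye4c) was nearly closed in medium and opened with each stimulus. It had 3.95 and 4.15 log2 CPM in MC, 3.20 and 2.70 in ML, 2.80 and 3.14 in MP and 2.10 and 1.86 in MT, against 0.40 and 0.64 in MM. No stimulated library overlapped the MM libraries. The log2 difference from MM was 3.53 ± 0.28 in MC (SE, adjusted p = 4.38e-12), 2.43 ± 0.28 in ML, 2.45 ± 0.35 in MP and 1.46 ± 0.28 in MT. The promoter of Gm14321 lay in the run beside Cebpb, 87.1 kb from that gene, with 7.03 and 6.79 log2 CPM in ML, against 5.50 and 5.72 in MM (log2 difference 1.29 ± 0.16, adjusted p = 8.09e-08). Its region also rose in MC (0.96 ± 0.16), MP (0.74 ± 0.19) and MT (0.77 ± 0.16), all past the test.

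At the Gm31482 promoter (50.4 kb from Rapgef5) accessibility fell with polyI:C, to 2.41 and 2.30 log2 CPM in MP, against 3.99 and 3.88 in MM (log2 difference -1.57 ± 0.27, adjusted p = 3.44e-05). CpG lowered it as well (-1.13 ± 0.22 in MC, adjusted p = 0.000156), and the differences in ML (-0.56) and MT (-0.28) did not pass the test. The Gm26901 promoter (224 kb from Pcmtd1) was the strongest far region, with a mean of 6.76 log2 CPM over the libraries. It ranged from 6.49 in CL replicate 1 to 7.25 in PT replicate 2, and no comparison of it passed the test. Counted over the 129 promoters at far regions, the AP-1 letters were present in 25 (19.4%), the PU.1 letters in 16 (12.4%), the ISRE letters in 10 (7.8%), the C/EBP letters in 3 (2.3%) and the NF-kB letters in 55 (42.6%). Among all 32851 promoters of the table the same letters were present in 7.8%, 3.2%, 3.4%, 2.1% and 50.8%, and among the 11588 promoters of long non-coding RNA genes in 9.3%, 3.3%, 3.6%, 2.6% and 39.3%. Of the 113 far regions at promoters, 7 rose and 14 fell in MC against MM, 10 rose and 12 fell in ML, 9 rose and 15 fell in MP, and 5 rose and none fell in MT. Over all 53796 regions, 17.2% rose and 8.79% fell in MC, 15.0% and 9.55% in ML, 14.3% and 8.28% in MP, and 5.79% and 0.573% in MT.

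MicroRNA genes were a second kind of landmark. Within 20 kb of a far region lay 52 miRNA hairpins, and 61 far regions were involved. The mature miRNAs printed next, read from RefSeq for GRCm38.p6, belong to some of the hairpins near responsive regions. MiR-155, whose hairpin lies within 150 kb of 11 far regions, is printed with them. Not every responsive region is covered. One 13.0 kb from the hairpin Gm51282, not printed, rose by 1.42 ± 0.21 in MC against MM (adjusted p = 1.55e-06). Capitals mark the seed (bases 2 to 8), the stretch that pairs with target RNAs. MiR-29a and miR-29b share a seed, as do miR-181a and miR-181b, and miR-221 and miR-222.
miR-146a-5p (Mir146, chr11:43374435-43374456): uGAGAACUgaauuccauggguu
miR-155-5p (Mir155, chr16:84714143-84714165): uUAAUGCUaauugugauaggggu
miR-29a-3p (Mir29a, chr6:31062673-31062694): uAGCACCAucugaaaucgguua
miR-29b-3p (Mir29b-1, chr6:31063025-31063047): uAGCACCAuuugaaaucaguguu
miR-181a-5p (Mir181a-1, chr1:137966468-137966490): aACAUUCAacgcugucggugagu
miR-181b-5p (Mir181b-1, chr1:137966650-137966673): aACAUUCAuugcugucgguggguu
miR-221-3p (Mir221, chrX:19146307-19146329): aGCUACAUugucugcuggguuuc
miR-222-3p (Mir222, chrX:19146901-19146923): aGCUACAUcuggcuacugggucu

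MiR-155 is induced in macrophages by Toll-like receptor ligands and TNF and promotes inflammatory responses. Between 72.7 and 132 kb from its hairpin stood 11 far regions. Of these, 8 rose in MC (all regions 17.2%), 7 in ML (15.0%), 8 in MP (14.3%) and 2 in MT (5.79%) against MM, and none fell. The most responsive (chr16:84603689-84604190, 110 kb from the hairpin and 114 kb from Mrpl39) had 5.05 and 4.74 log2 CPM in MC, 4.16 and 4.26 in ML, 4.97 and 4.96 in MP and 2.77 and 3.34 in MT, against 1.84 and 1.13 in MM. All stimulated libraries lay above both MM libraries. The log2 differences were 3.41 ± 0.20 for MC (SE, adjusted p = 3.65e-15), 2.73 ± 0.20 for ML, 3.48 ± 0.25 for MP and 1.57 ± 0.20 for MT (adjusted p = 1.12e-06). It was also higher with 2 stimuli than with the second alone, by 1.21 ± 0.20 in PL against ML (adjusted p = 4.75e-05) and by 2.01 ± 0.20 in PT against MT (adjusted p = 7.95e-09).

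MiR-146a acts in negative feedback, since it targets the signalling proteins Traf6 and Irak1. In all, 7 far regions stood 5.1 to 24.7 kb from its hairpin and did not move together. At 5.1 kb (chr11:43369042-43369543) accessibility was 3.77 and 3.22 log2 CPM in MC, 3.39 and 2.81 in ML, 1.74 and 2.02 in MP and 2.05 and 2.04 in MT, against 1.13 and 1.13 in MM. The rise passed the test for MC (log2 difference 2.37 ± 0.27, adjusted p = 1.61e-08), ML (1.97 ± 0.27) and MT (0.92 ± 0.27, adjusted p = 0.034), while that of MP did not (0.75 ± 0.33, adjusted p = 0.105). At 5.75 kb the region rose with all 4 stimuli, by 0.83 ± 0.19 in MP (adjusted p = 0.00139). That at 15.4 kb rose by 1.95 ± 0.39 in MP (adjusted p = 0.000272), and by 1.70 ± 0.32 in MC and 1.10 ± 0.32 in ML, both past the test. Further out, the region 22.4 kb from the hairpin (chr11:43351787-43352288) had 1.81 and 2.30 in MP, against 3.12 and 3.41 in MM (log2 difference -1.21 ± 0.32, adjusted p = 0.00472). It also fell in MC (-0.70 ± 0.26, adjusted p = 0.0419). In MP 2 of the 7 regions rose and 2 fell, where over all regions 14.3% rose and 8.28% fell.

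The regions near other miRNAs also moved. The region 13.3 kb from Mir181a-1 and Mir181b-1 (chr1:137952904-137953405) reached 4.21 and 4.47 log2 CPM in MP, against 2.21 and 2.13 in MM (log2 difference 2.17 ± 0.24, adjusted p = 1.64e-08). It rose in MC as well (0.84 ± 0.20, adjusted p = 0.0014), and its differences in ML (0.29 ± 0.20, adjusted p = 0.304) and MT (0.40 ± 0.20, adjusted p = 0.294) did not pass the test. The region 2.48 kb from Mir29b-1 and Mir29a had 4.71 and 5.17 in MC, 5.12 and 4.93 in ML, 4.95 and 4.99 in MP, and 4.81 and 4.33 in MT, against 4.18 and 3.57 in MM. Each of these 4 differences passed the test (1.06, 1.15, 1.10 and 0.70). Near Mir221 and Mir222 the region at 13.6 kb rose with every stimulus, by 0.88 ± 0.23 in MC (adjusted p = 0.00388), 0.83 ± 0.23 in ML (adjusted p = 0.00751), 1.11 ± 0.28 in MP (adjusted p = 0.00355) and 0.90 ± 0.23 in MT (adjusted p = 0.0103). Over the 61 regions within 20 kb of a hairpin, 10 rose and 7 fell in MC, 9 and 8 in ML, 11 and 6 in MP, and 7 and 1 in MT. The shares over all regions were 17.2% and 8.79% in MC, 15.0% and 9.55% in ML, 14.3% and 8.28% in MP, and 5.79% and 0.573% in MT.

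**Figure D2:**
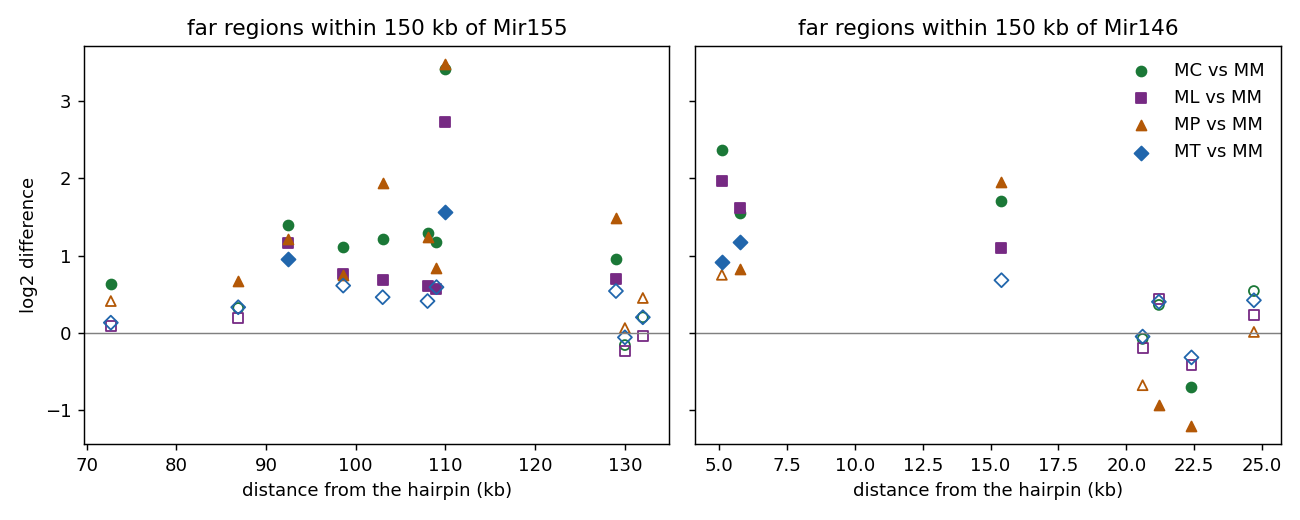
Log2 difference from MM against distance from the hairpin (kb) for far regions within 150 kb of Mir155 (left, 11 regions) and Mir146 (right, 7 regions). Filled symbols passed adjusted p under 0.05 and open symbols did not. The region 110 kb from Mir155 reached 3.48 in MP and 3.41 in MC. Of the regions near Mir146, 2 rose and 2 fell in MP, with the falls over 20 kb from the hairpin.

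The single-stimulus comparisons ask which far sites each agent opened or closed within 4 h. With CpG, 1084 far regions (21.8%) rose and 526 (10.6%) fell in MC against MM, where over all regions 17.2% rose and 8.79% fell. LPS raised 802 (16.1%, all regions 15.0%) and lowered 676 (13.6%, all regions 9.55%). PolyI:C raised 783 (15.7%, all regions 14.3%) and lowered 622 (all regions 8.28%), and TNF raised 394 (7.92%, all regions 5.79%) and lowered 28 (0.563%, all regions 0.573%). Between genes within 50 kb, 21.6% rose in MC, 18.5% in ML, 17.9% in MP and 7.34% in MT. Inside genes the rises were 19.8%, 17.2%, 16.3% and 6.74%, so in ML and MP far regions rose less often than both classes. Falls were 8.92%, 8.75%, 8.67% and 0.562% between genes, and 9.84%, 8.8%, 9.46% and 0.723% inside genes. With both MP libraries kept as separate samples, the polyI:C counts were 1018 rises and 996 falls, 40.5% of the far regions, against 33.3% called in MC in that fit. In limma-voom on recovered reads the shares were 37.3% in MP and 32.7% in MC. The order of CpG and polyI:C by number of calls thus depended on the fit. The 4 comparisons share the MM libraries. Far regions also differed in level from the rest, so the shares were read within quartiles of level. In the highest quartile, with 836 far regions, 22.2% of far and 12.1% of other regions rose in MC, and 16.3% of far and 7.34% of other regions fell in MP. In the lowest quartile, with 1606 far regions, the shares were 25.1% and 23.7% for rises in MC and 8.09% and 6.1% for falls in MP. The other regions include those within 1 kb of a gene end, with a median level of 4.46 log2 CPM. Of these, 5.98% rose in MC and 3.89% fell in MP, and they were not set apart within the quartiles. No test was made of these contrasts between kinds of region.

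The share of far regions called moved with single libraries. Counting both directions it was 32.4% in MC against MM (all regions 26.0%), 29.7% in ML against MM (all regions 24.5%), 28.2% in MP against MM (all regions 22.5%) and 8.48% in MT against MM (all regions 6.36%). For ML it was 16.3%, 18.9% and 17.4% without ML replicate 1, ML replicate 2 and MM replicate 2. For MT it was 4.84%, 5.39% and 4.88% without MM replicate 2, MT replicate 1 and MT replicate 2. Of the ML calls 54.3% were rises, and 67.8% were rises (893 against 424 falls) when libraries were shifted to one median of the far regions. After quantile normalization, rises were 48.5% of the calls for ML and 48.8% for MP, where they had been 54.3% and 55.7%.

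**Figure D3:**
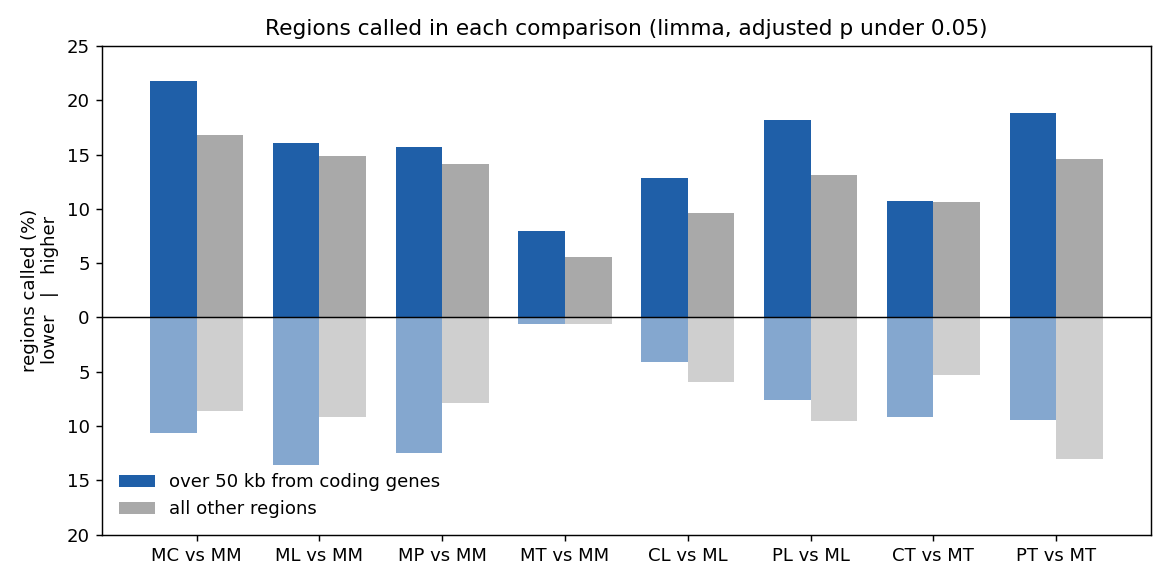
Percent of regions called higher (up) and lower (down, paler) in each of 8 comparisons, for the 4975 far regions (blue) and the 48821 other regions (grey). In MC against MM 21.8% of far and 16.8% of other regions were called higher, and in ML against MM 13.6% of far and 9.13% of other regions were called lower. The other regions include those within 1 kb of a gene end, of which 5.98% were called higher in MC against MM.

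The share of falls by distance differed between comparisons, a description without a test. Among the 223 members over 500 kb from a coding gene, 39 (17.5%) fell in MC, 53 (23.8%) in ML and 50 (22.4%) in MP. Among the 2297 members at 50 to 100 kb, 220 (9.58%), 285 (12.4%) and 260 (11.3%) did. In CT against MT the shares were 19.3% over 500 kb and 7.58% at 50 to 100 kb. In the other comparisons falls were no more frequent over 500 kb than at 50 to 100 kb, with 0.448% and 0.697% in MT against MM, 4.48% and 4.7% in CL against ML, 6.28% and 8.1% in PL against ML, and 6.73% and 10.1% in PT against MT. In runs of 3 or more, 487 of 1889 members (25.8%) rose and 196 (10.4%) fell in MC, while among members standing alone 371 of 1926 (19.3%) rose and 212 (11.0%) fell. Their median levels were 3.60 and 3.29 log2 CPM. Of 34 members in the Igh locus, which holds the immunoglobulin heavy chain segments, 12 (35.3%) fell and 4 (11.8%) rose in MP against MM, where over all regions 8.28% fell and 14.3% rose.

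Single neighbourhoods differed in direction and in the stimulus that moved them. Of the 14 neighbours beside Cebpb, 6 rose and none fell in MC, 7 rose in ML, 5 rose and 1 fell in MP and 5 rose in MT, with median log2 differences of 0.42, 0.58, 0.23 and 0.22. Of the 13 beside Tmco5, 10 rose in MP (median 0.94), against 7 rises and 1 fall in MC (median 0.50). Of the 18 beside Tomm20, 2 rose and 2 fell in MC and 1 rose and 3 fell in MP. The 29 members nearest Marcks, which encodes an actin-binding substrate of protein kinase C, gave 18 rises and 1 fall in MC (median 0.61), and 6 rises and 4 falls in MP (median -0.02). The 23 nearest Rasgef1b gave 8 rises and 1 fall in MC and 10 rises in MP. Of all regions, 17.2% rose and 8.79% fell in MC, 15.0% and 9.55% in ML, 14.3% and 8.28% in MP, and 5.79% and 0.573% in MT.

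The neighbourhoods of Zfp386, Id2 and Adgrl2 differed in their response to polyI:C. Of the 25 members nearest Zfp386, 2 rose and 9 fell in MP (median log2 difference -0.59), and 1 rose and 10 fell in PT against MT. Of the 28 nearest Id2, which encodes an inhibitor of helix-loop-helix factors, 12 rose and 2 fell in MC, 5 rose and 3 fell in MP, and 1 rose and 8 fell in PT against MT. Of the 47 nearest Adgrl2, 17 rose and 5 fell in MC, 9 rose and 5 fell in MP, and 9 rose and 3 fell in PT against MT. Shares over all regions were 17.2% higher and 8.79% lower in MC, 14.3% and 8.28% in MP, and 15.0% and 12.7% in PT against MT.

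Inflammatory mediators had few far regions, several of them with large rises. Of 16 far regions nearest to 6 cytokine, chemokine and effector genes (Il6, Il12b, Il15, Cxcl5, Ptgs2 and Csf1), 9 rose and 1 fell in MC, 6 rose in ML, 5 in MP and 3 in MT, with median log2 differences of 0.83, 0.24, 0.29 and 0.23 against 0.01, 0.0, -0.01 and -0.01 over all regions. Rises were 56.2% in MC (all regions 17.2%), 37.5% in ML (15.0%), 31.2% in MP (14.3%) and 18.8% in MT (5.79%). A region 89.6 kb from Ptgs2, the inducible prostaglandin synthase (chr1:150197616-150198117), had 6.10 and 6.11 log2 CPM in MC, 5.39 and 5.58 in ML, 5.78 and 5.70 in MP and 4.48 and 4.65 in MT, against 2.51 and 2.41 in MM. No stimulated library overlapped those in medium. Log2 differences were 3.65 ± 0.13 in MC (SE, adjusted p = 2.35e-20), 3.03 ± 0.13 in ML, 3.28 ± 0.16 in MP and 2.11 ± 0.13 in MT (adjusted p = 5.1e-13). Beside Cxcl5, a chemokine for neutrophils (chr5:90702776-90703277, 56.3 kb), the values were 3.93 and 3.67 in MC, 3.52 and 3.50 in ML, 3.07 and 3.51 in MP and 2.90 and 2.73 in MT, against 0.74 and 0.64 in MM. Each of these 4 rises passed the test, from 3.11 ± 0.22 in MC to 2.13 ± 0.22 in MT.

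Around genes of the NF-kB system, 17 of 52 far regions rose and 3 fell in MC, 12 and 3 in ML, 15 and 5 in MP, and 3 and 2 in MT. Rises were thus 32.7% in MC (all regions 17.2%), 23.1% in ML (all regions 15.0%), 28.8% in MP (all regions 14.3%) and 5.77% in MT (all regions 5.79%). Falls were 5.77% (all regions 8.79%), 5.77% (9.55%), 9.62% (8.28%) and 3.85% (0.573%). The 52 regions lay nearest Nfkbiz (16 regions), Tnfaip3 (11), Trib1 (19), Peli1 (4), Tnip3 and Cyld. Tnfaip3 encodes A20, an enzyme that limits NF-kB signalling, and its far regions went both ways. At chr10:19078029-19078530 (62.9 kb) values were 3.58 and 3.75 log2 CPM in MC, 4.07 and 4.39 in ML, 4.11 and 4.35 in MP and 3.74 and 3.23 in MT, against 1.24 and 1.13 in MM. The differences of 2.48, 3.04, 3.05 and 2.30 all passed the test, and none of the 4 comparisons of 2 stimuli with the second alone did (0.19 to 0.46). On the other side, at chr10:18941413-18941914 (59.2 kb), values fell to 1.28 and 1.47 in MP, against 3.87 and 3.78 in MM (log2 difference -2.45 ± 0.30, adjusted p = 7.55e-08), and the falls in MC (-1.32), ML (-0.97) and MT (-0.87) passed as well.

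Nfkbiz encodes IkB-zeta, a nuclear cofactor of NF-kB for secondary response genes. Its region at 222 kb (chr16:55589282-55589783) had 3.87 and 3.88 log2 CPM in MC, 2.66 and 2.29 in ML, 0.77 and 0.76 in MP and 1.09 and 0.45 in MT, against 0.88 and 0.31 in MM. The MC and ML libraries stood above MM, whereas those of MP and MT overlapped it. The log2 difference was 3.28 ± 0.28 in MC (adjusted p = 3.25e-11), 1.88 ± 0.28 in ML (adjusted p = 4.89e-06), 0.17 ± 0.35 in MP and 0.17 ± 0.28 in MT (adjusted p = 0.849). At 170 kb (chr16:55640879-55641380) MP reached 3.30 and 3.34, against 1.13 and -0.10 in MM (log2 difference 2.80 ± 0.42, adjusted p = 3.15e-06). This region also rose in MC, to 3.79 and 3.53 (3.15 ± 0.34, adjusted p = 4.29e-09), and in ML (1.71 ± 0.34, adjusted p = 0.000264). Its difference in MT did not pass the test (0.94 ± 0.34, adjusted p = 0.104). Of the interferon-stimulated list, with 47 genes, a single far region was present, near Irf8, and its difference from MM was -0.49 in MC, -0.60 in ML, -0.44 in MP and -0.68 in MT, none past the test.

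Inducible transcription factors held the largest share of listed far regions, 232 at 18 genes, of which 71 rose and 22 fell in MC, 67 and 11 in ML, 44 and 28 in MP, and 30 and 2 in MT. Rises were 30.6% in MC (all regions 17.2%), 28.9% in ML (all regions 15.0%), 19.0% in MP (all regions 14.3%) and 12.9% in MT (all regions 5.79%), and falls 9.48% (all regions 8.79%), 4.74% (9.55%), 12.1% (8.28%) and 0.862% (0.573%). The 30 members nearest Myc, the growth regulator, spread over 53.6 to 881 kb, rose more than they fell with CpG (8 and 4) and LPS (9 and 1), and fell more than they rose with polyI:C (1 and 7). One at 275 kb (chr15:62265519-62266020) had 4.98 and 5.04 log2 CPM in MC, 4.31 and 4.30 in ML, 1.81 and 2.78 in MP and 2.58 and 2.61 in MT, against 2.27 and 2.49 in MM. The rise was 2.63 ± 0.18 in MC (adjusted p = 1.34e-13) and 1.92 ± 0.18 in ML, with -0.08 ± 0.22 in MP (adjusted p = 0.843). Another at 311 kb (chr15:62301106-62301607) was 2.30 ± 0.17 higher in ML, 1.39 ± 0.21 in MP and 1.76 ± 0.17 in MT (adjusted p = 4.53e-09). Of 42 members near Klf6, 15 rose and 2 fell in MC and 12 rose and 3 fell in MP.

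Macrophage lineage factors had 65 far regions at 10 genes, with 14 rises and 6 falls in MC, 17 and 4 in ML, 13 and 8 in MP and 6 and 0 in MT. Rises were 21.5% in MC (all regions 17.2%, far regions 21.8%), 26.2% in ML (all regions 15.0%), 20.0% in MP (all regions 14.3%) and 9.23% in MT (all regions 5.79%). Falls were 9.23% (all regions 8.79%), 6.15% (9.55%), 12.3% (8.28%) and 0.0% (0.573%). Runx1, a haematopoietic transcription factor, had 15 of the 65 regions. Its region at 316 kb (chr16:93141997-93142498) had 4.81 and 4.88 log2 CPM in MC, 5.22 and 5.19 in ML, 5.05 and 5.13 in MP and 4.67 and 4.79 in MT, against 3.14 and 3.18 in MM, with differences of 1.57 to 2.04 that all passed the test. The region at 118 kb (chr16:92943800-92944301) responded most to polyI:C, with 4.40 and 4.46 in MP, against 0.74 and 1.32 in MM (log2 difference 3.40 ± 0.36, adjusted p = 4.53e-09). Signalling genes of the Toll-like and TNF receptor pathways had 22 far regions, of which 8 rose and 2 fell in MC, 5 and 2 in ML, 7 and 1 in MP and 4 and 0 in MT. Rises there were 36.4% in MC, 22.7% in ML, 31.8% in MP and 18.2% in MT, against the same shares over all regions. Near Ripk2, the kinase downstream of NOD receptors (chr4:16071190-16071691, 51.3 kb), MP had 4.71 and 4.38, against 1.35 and 1.13 in MM (log2 difference 3.31 ± 0.29, adjusted p = 1.57e-10). This region also rose in MC (2.00 ± 0.24, adjusted p = 4.31e-08) and ML (0.89 ± 0.24, adjusted p = 0.00584), and did not pass in MT (0.11 ± 0.24, adjusted p = 0.895).

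The largest rise with any of the 4 single stimuli lay inside the non-coding gene Gm32780, 72.8 kb from Kdr, which encodes a receptor for vascular endothelial growth factor (chr5:76051600-76052101). It had 3.68 and 3.99 log2 CPM in MC, 2.61 and 2.34 in ML, 5.00 and 5.00 in MP and 0.84 and 1.24 in MT, against 0.40 and 0.64 in MM. MP stood highest and MT just above medium. The log2 difference was 4.48 ± 0.27 in MP (adjusted p = 4.33e-14), 3.31 ± 0.22 in MC, 1.96 ± 0.22 in ML and 0.52 ± 0.22 in MT (adjusted p = 0.2). Kdr is on the list of stromal and endothelial genes, whose 24 far regions rose in 6 cases and fell in 5 in MC and rose in 4 and fell in 4 in MP. These were 25.0% and 20.8% in MC (all regions 17.2% and 8.79%) and 16.7% and 16.7% in MP (all regions 14.3% and 8.28%). Of the defining markers of such cells, Col1a1, Col1a2 and Pdgfra had no accessible region within the gene or 1 kb of it. The strongest such region averaged 5.10 log2 CPM at Pdgfrb and 5.51 at Cdh5 over the libraries. The part of such cells in the Kdr result was not tested. In bulk libraries more cells of a kind and a more open site per cell cannot be told apart. Near Ly86 (chr13:37506045-37506546, 87.3 kb), which encodes the MD-1 partner of a Toll-like receptor homologue, the largest rise with TNF brought 2.45 and 2.67 in MT, against 0.19 and -0.10 in MM (log2 difference 2.52 ± 0.25, adjusted p = 6.54e-09). These values rest on 52 reads in MT and 4 in MM, an 11.6-fold ratio of CPM with an exact 95% interval of 4.27 to 44.2 for counting error only.

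Near Fam43a (chr16:30678770-30679271, 76.2 kb) accessibility was 3.72 and 3.77 log2 CPM in MC, 2.26 and 1.46 in ML, 0.21 and 1.09 in MP and 0.16 and -0.20 in MT, against -0.05 and 0.31 in MM. MC and ML stood above medium, and the MP and MT libraries did not stand apart from it. The log2 difference was 3.61 ± 0.33 in MC (adjusted p = 1.31e-10). With 131 reads in MC and 4 in MM, the ratio of CPM was 28.5 (exact 95% interval 10.9 to 106 for counting error only). Near Sgip1, which takes part in endocytosis (chr4:102682104-102682605, 58.9 kb), MC had 6.01 and 5.96, against 2.21 and 2.13 in MM (3.82 ± 0.18, adjusted p = 2.1e-17). Near Slco3a1 and Ralgapa2 the rises in MP were 3.95 ± 0.28 and 3.64 ± 0.35, where ML had 1.08 ± 0.23 and 0.53 ± 0.28 (adjusted p = 0.173 for the second). CpG raised both, by 2.38 ± 0.23 and 1.52 ± 0.28 in MC (adjusted p = 2.75e-10 and 8.58e-05). TNF raised the Slco3a1 region (1.45 ± 0.23, adjusted p = 2.81e-05), and the Ralgapa2 region did not pass in MT (-0.13 ± 0.28, adjusted p = 0.887).

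Falls were smaller in size. The largest in MC was 122 kb from Bcl11a, a zinc finger repressor of blood lineages (chr11:24295114-24295615), with 3.11 and 3.14 log2 CPM in MC, 3.59 and 3.36 in ML, 2.55 and 3.17 in MP and 4.29 and 4.30 in MT, against 5.29 and 5.09 in MM. MM was highest of all groups, and its libraries overlapped none. The log2 differences were -2.07 ± 0.21 in MC (adjusted p = 1.15e-09), -1.72 ± 0.21 in ML, -2.33 ± 0.26 in MP and -0.90 ± 0.21 in MT (adjusted p = 0.00447). Regions near Frmd6 and Nox3 fell with CpG, LPS and polyI:C, with log2 differences of -1.97, -1.62 and -1.47 near Frmd6 and of -1.67, -1.84 and -2.36 near Nox3, while their differences in MT (-0.70 and -1.03) did not pass the test. With TNF the largest fall was near Gpr12 (-1.34 ± 0.28, adjusted p = 0.00119).

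Further regions moved with several agents. Near Tmem212 (chr3:27791455-27791956, 74.4 kb) values were 2.97 and 3.31 log2 CPM in MC, 3.72 and 3.79 in ML, 2.80 and 3.21 in MP and 3.08 and 3.44 in MT, against 0.74 and 1.13 in MM. All 4 rises passed the test, and the TNF rise (2.33 ± 0.23, adjusted p = 5.97e-09) was within the range of the other three (2.07 to 2.82). Near Klf7, a transcription factor gene (chr1:64226024-64226525, 104 kb), the log2 differences were 1.89 in MC, 2.02 in ML, 1.58 in MP and 1.09 in MT, all with SE of 0.16 to 0.20 and past the test. Near Pla2g4a, the gene of cytosolic phospholipase A2 (chr1:148906590-148907091, 923 kb), accessibility was 0.91 and 1.35 in MP, against 3.43 and 3.57 in MM (log2 difference -2.36 ± 0.36, adjusted p = 4.41e-06).

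**Figure D4:**
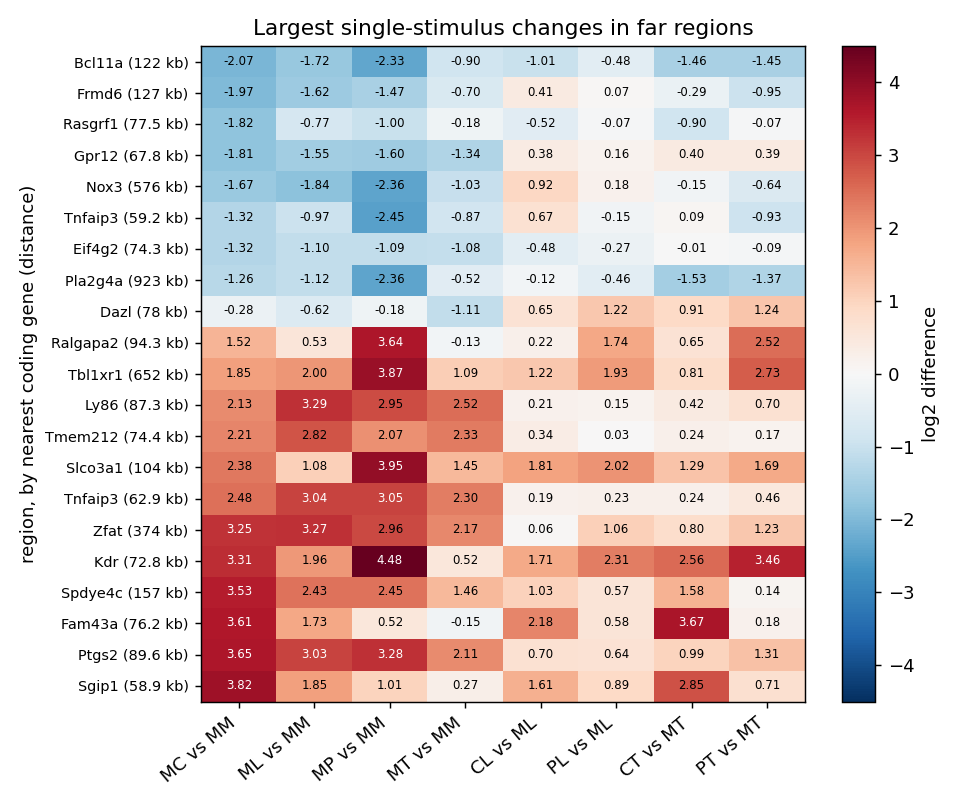
Log2 differences of the 21 far regions with the largest rises and falls in the 4 single-stimulus comparisons (rows, by nearest coding gene and distance), across 8 comparisons (columns). Red is higher and blue lower in the first-named group. The Kdr region reaches 4.48 in MP against MM, and Bcl11a falls in all 4 single-stimulus columns.

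Groups given 2 stimuli were compared with the group given the second stimulus alone. In CL against ML, 638 far regions (12.8%, all regions 9.95%) were higher and 206 (4.14%, all regions 5.76%) lower. In PL against ML, 904 (18.2%, all regions 13.5%) were higher and 377 (7.58%, all regions 9.36%) lower. In CT against MT, 533 (10.7%, all regions 10.6%) were higher and 454 (9.13%, all regions 5.65%) lower. In PT against MT, 934 (18.8%, all regions 15.0%) were higher and 469 (9.43%, all regions 12.7%) lower. CL and PL share the ML libraries, and CT and PT share those of MT.

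The direction of these counts depended on the library scale. Rises were 75.6% of the calls in CL against ML, 59.6% after quantile normalization and 55.3% with libraries shifted to one median. Shifting to one median of the far regions moved their values by 0.17 and left 41.6% rises. For PL against ML the share of rises was 70.6%, with 60.0% after quantile normalization and 42.1% after the far-median shift, of 0.19. For CT against MT it was 54.0%, with 41.7% after quantile normalization and 44.1% with one median for all regions, and for PT against MT 66.6% and 45.9% after the far-median shift, of 0.15. In CL, PL, CT and PT the majority direction of the calls thus depended on the scale used.

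The counts also moved with single libraries. The share called in either direction in CL against ML was 17.0% (all regions 15.7%), with 7.26%, 10.1%, 6.97% and 9.23% without CL replicate 1, CL replicate 2, ML replicate 1 and ML replicate 2, and 26.3% with only the groups compared in the fit. The share in PL against ML was 25.7% (all regions 22.9%), with 15.4%, 13.4%, 13.0% and 15.1% without PL replicate 1, PL replicate 2, ML replicate 1 and ML replicate 2. In CT against MT it was 19.8% (all regions 16.3%), with 10.5%, 12.7% and 10.6% without CT replicate 2, MT replicate 1 and MT replicate 2. In PT against MT it was 28.2% (all regions 27.7%), with 19.1% (569 higher and 381 lower) without PT replicate 2, 15.7% without MT replicate 1 and 16.4% with only the groups compared.

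Many far regions opened by CpG or polyI:C alone were also higher when that agent came first. These pairs of comparisons have no library in common, but they come from 1 fit and share its estimate of each region's spread. Their calls are therefore not independent. Of the 1084 regions that rose in MC against MM, 379 (35.0%) rose in CL against ML, where they were 59.4% of the rises, and 406 (37.5%) rose in CT against MT, where they were 76.2%. Of the 783 that rose in MP against MM, 378 (48.3%) rose in PL against ML (41.8% of the rises there) and 440 (56.2%) in PT against MT (47.1%), or 42.6% without PT replicate 2. The share for CL was 19.5%, 21.8% and 19.8% without CL replicate 1, CL replicate 2 and ML replicate 1. In other regions the corresponding shares were 33.9%, 43.3%, 43.7% and 50.6%. Of the 526 regions that fell in MC, 74 (14.1%) fell in CL and 181 (34.4%) in CT, and of the 622 that fell in MP, 125 (20.1%) fell in PL and 174 (28.0%) in PT. Among all far regions, 12.8% rose and 4.14% fell in CL, 10.7% and 9.13% in CT, 18.2% and 7.58% in PL, and 18.8% and 9.43% in PT.

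By gene list, far regions near inflammatory mediators rose in 7 cases of 16 and fell in 1 in CL and in CT, rose in 5 and fell in 1 in PL, and rose in 6 and fell in 2 in PT, with medians of 0.56, 0.45, 0.37 and 0.36 in CL, CT, PL and PT. Of the 232 near inducible transcription factors, 43 rose and 15 fell in CL and 35 rose and 10 fell in CT, whereas 35 rose and 37 fell in PL and 36 rose and 35 fell in PT. Of the 52 near the NF-kB system, 8 rose and 2 fell in CL, 7 and 2 in CT, 8 and 5 in PL and 8 and 7 in PT. Of the 65 near macrophage lineage genes, 7 rose and 4 fell in CL, 9 and 6 in CT, 12 and 4 in PL and 11 and 8 in PT. Of the 22 near signalling genes, 4 rose and 1 fell in CL, 3 and 1 in CT, 8 and 0 in PL and 6 and 2 in PT. Over all regions 9.95% rose and 5.76% fell in CL, 10.6% and 5.65% in CT, 13.5% and 9.36% in PL, and 15.0% and 12.7% in PT. Near inducible transcription factors the rises were 15.1% in PL and 15.5% in PT, close to those shares, and 18.5% in CL and 15.1% in CT.

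Far regions near markers of other cell types were few. T and NK cell markers had 5, of which 1 rose and 1 fell in MC, 1 fell in ML and none passed in MP or MT. Erythroid and progenitor markers had 9, of which 1 rose and 2 fell in MC, 3 fell in ML and 3 fell in MP. Stromal and endothelial markers had 24, of which 8 rose and none fell in PL, 6 rose and none fell in PT, 4 rose and 2 fell in CL, and 2 rose and 3 fell in CT. The only B cell member, near Cr2, was higher in PL and PT, and neutrophil markers had none. Shares over all regions were 17.2% higher and 8.79% lower in MC, 15.0% and 9.55% in ML, 14.3% and 8.28% in MP, and 5.79% and 0.573% in MT. They were 9.95% and 5.76% in CL, 13.5% and 9.36% in PL, 10.6% and 5.65% in CT, and 15.0% and 12.7% in PT.

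The Fam43a region was open in both groups given CpG first. It had 3.63 and 3.66 log2 CPM in CT, against 0.16 and -0.20 in MT (log2 difference 3.67 ± 0.33, adjusted p = 4.33e-10), and 4.01 and 4.07 in CL, against 2.26 and 1.46 in ML (2.18 ± 0.33, adjusted p = 2.48e-05). With polyI:C first the difference was 0.18 ± 0.33 in PT against MT (adjusted p = 0.724). The region 162 kb from Ibtk (chr9:85524756-85525257) was 4.41 and 4.40 in CL, against 0.96 and 1.37 in ML, and 3.42 and 3.05 in CT, against -0.07 and -0.20 in MT (differences of 3.24 ± 0.34 and 3.37 ± 0.34). CT held 95 reads there, against 3 in MT. The Nfkbiz region at 222 kb was higher by 3.32 ± 0.28 in CT against MT (adjusted p = 1.18e-10) and by 0.01 ± 0.28 in PT against MT.

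Regions near Myc, Marcks and Klf6 also rose after a first agent. At 736 kb from Myc (chr15:62726567-62727068) values were 3.40 and 3.29 log2 CPM in CT, against -0.07 and 0.45 in MT (3.15 ± 0.31, adjusted p = 3.02e-09), and 4.01 and 4.02 in CL, against 2.08 and 2.18 in ML (1.88 ± 0.31, adjusted p = 8.07e-05). With polyI:C first the difference was 0.81 ± 0.31 in PT (adjusted p = 0.0531). At 287 kb from Marcks (chr10:37425182-37425683) values were 3.49 and 3.62 in PL and 2.23 and 2.14 in CL, against 0.46 and 0.90 in ML, with differences of 2.87 ± 0.35 in PL (adjusted p = 4.7e-07) and 1.51 ± 0.35 in CL (adjusted p = 0.00324). At 323 kb from Klf6 (chr13:5537916-5538417) the difference was 2.60 ± 0.41 in CL (adjusted p = 3.39e-05), and in PL it was 1.00 ± 0.41 (adjusted p = 0.0707).

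The Kdr region followed both agents. It had 4.80 and 4.77 log2 CPM in PL and 3.99 and 4.38 in CL, against 2.61 and 2.34 in ML, and 4.56 and 4.44 in PT and 3.65 and 3.54 in CT, against 0.84 and 1.24 in MT. All 4 differences passed the test, with 2.31 ± 0.22 in PL, 1.71 ± 0.22 in CL, 3.46 ± 0.22 in PT (3.52 without PT replicate 2) and 2.56 ± 0.22 in CT. Near Tbl1xr1, a subunit of a corepressor complex (chr3:21423842-21424343, 652 kb), PT had 3.89 and 4.18, against 0.97 and 1.64 in MT (2.73 ± 0.36, adjusted p = 7.52e-07, and 2.58 without PT replicate 2). Near Prkcq the difference was 2.81 ± 0.34 in PT and 2.09 ± 0.34 in PL.

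Some far regions closed after polyI:C followed by a second agent. At 55.4 kb from Rab4a, a GTPase of endosome recycling (chr8:123750215-123750716), values were 3.03 and 3.06 log2 CPM in PL, against 4.37 and 4.62 in ML, and 2.54 and 2.08 in PT, against 4.37 and 4.01 in MT. The log2 differences were -1.45 ± 0.20 in PL (adjusted p = 1.92e-06) and -1.88 ± 0.20 in PT (adjusted p = 1.18e-08, and -1.65 without PT replicate 2). PolyI:C alone gave 3.88 and 3.71 in MP, against 4.18 and 3.91 in MM (-0.25 ± 0.24, adjusted p = 0.524). A region 139 kb from B3gnt2 (chr11:22695116-22695617) was lower too, at 3.21 and 3.10 in PL, against 4.61 and 4.47 in ML (-1.38 ± 0.17, adjusted p = 4.62e-07). Here polyI:C alone also brought a fall, to 3.79 and 3.99 in MP, against 4.63 and 4.66 in MM (-0.76 ± 0.21, adjusted p = 0.00714).

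**Figure D5:**
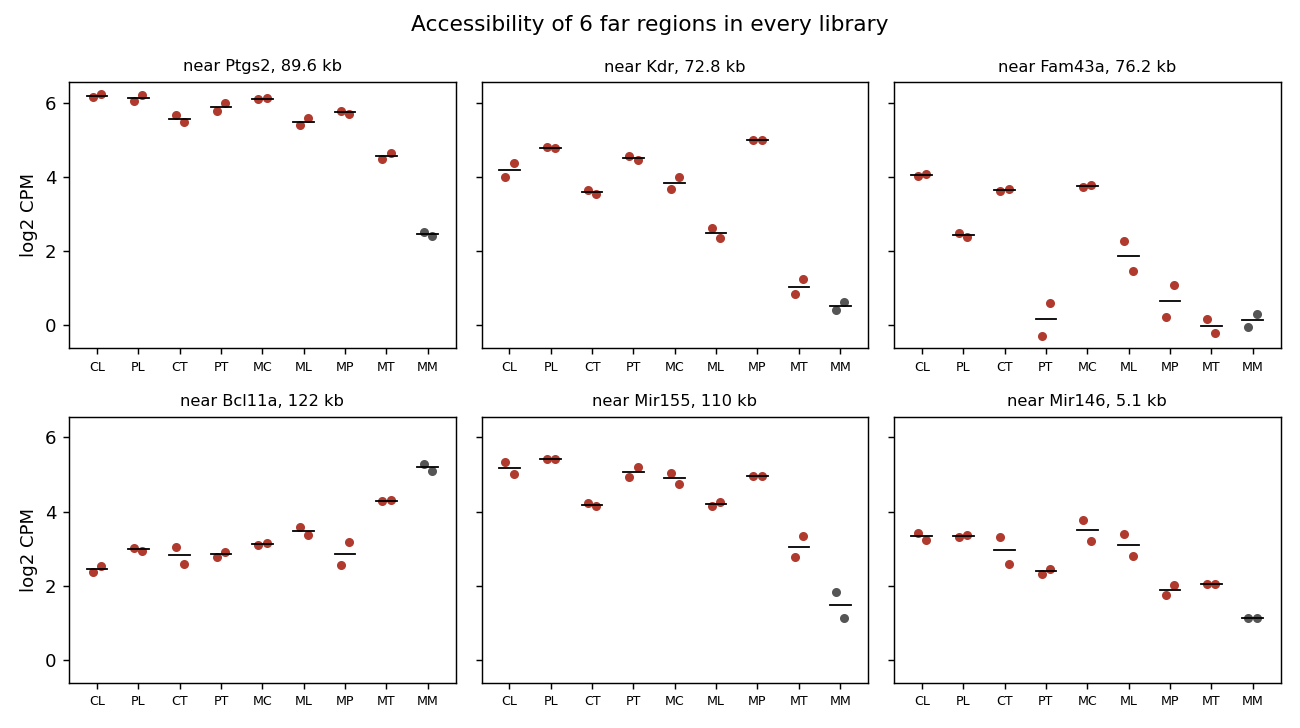
Log2 CPM of 6 far regions in every library (points, 2 a group) with the group mean (bar). Groups run from 2-stimulus groups at the left to MM at the right. The Fam43a region is high in CL, CT and MC, the Bcl11a region is highest in MM, and the Kdr region is 5.00 in both MP libraries.

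The most remote members were mixed. The region 1816 kb from G6pd2 (chr5:59992534-59993035) had 4.48 and 4.60 log2 CPM in CL, against 2.37 and 2.34 in ML (2.18 ± 0.31, adjusted p = 7.31e-06), and 4.02 and 4.11 in CT, against 1.48 and 2.13 in MT (2.26 ± 0.31). Its neighbour at 1812 kb (chr5:59996589-59997090) was strong throughout, at 5.68 to 6.42 log2 CPM, and differed by at most 0.14 with a single stimulus, which did not pass the test. Its log2 differences of -0.34 in PL against ML and -0.39 in CT against MT passed the test. The region 1722 kb from Pcdh7 was higher by 1.30 ± 0.23 in PT against MT (adjusted p = 6.31e-05) and by 0.99 ± 0.23 in PL against ML. Strong, steady regions were also found near Dyrk2 (mean 6.72 log2 CPM) and 52.9 kb from Wnt7b (6.60), and neither passed the test in any of the 8 comparisons.

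Whether the effect of a first agent depended on the second was tested as a difference of differences. For CpG, 11 far regions (0.221%, all regions 0.245%) passed the test in limma, 1 higher (0.0201%, all regions 0.00929%) and 10 lower (0.201%, all regions 0.236%) under LPS than under TNF, with 652 at an unadjusted p under 0.05. For polyI:C none did in limma (all regions 0.0%), with 227 at an unadjusted p under 0.05, and none in limma-voom on reads recovered from the log2 values. The CpG share was 0.121% without either CL library, 0.101% without CT replicate 2, 0.141% without ML replicate 2 or MT replicate 2, and 1.43% without either PT library. The polyI:C share was 0.302% without PT replicate 1.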

How the data were processed

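ATAC-seq of bone marrow-derived macrophages was deposited as 1 table of 53796 regions of 501 bases by 18 libraries (9 groups of 2). The submitters' processing notes name mm10, featureCounts, MACS3 3.0.0b1, Picard, SAMtools 1.9 and Bowtie2 2.2.5. The deposited values are log2 CPM made by the authors with a prior of 3 reads, as the values show: every value gave back a whole read count (100% within 0.01), with library sizes of 3196810 to 5982873. The depth limits the precision of low regions, and intervals cover counting error only.

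Distances were computed from region midpoints to the bodies of 21627 protein-coding genes in the RefSeq table of GRCm38.p6. Group means were fitted to the log2 values with limma 3.58.1 in R 4.3.3 (trended variance, 53796 regions, no filter), with the 2 MP libraries averaged, and p-values adjusted by Benjamini-Hochberg over all regions and two-sided. ± after a log2 difference is its standard error. Comparisons were each stimulus against MM, 2 stimuli against the second alone, and 2 differences of differences. Scripts were tested on simulated data. Replicate numbers did not pair libraries.

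Members, gene lists and tests were chosen with earlier results of these data known. The named regions were, per comparison, 4 rises and 3 falls, by size, from called members without overlap between groups, 1 per run, the 4 highest and 3 farthest members, the 3 longest runs and up to 3 per gene list by smallest p. Only some of the regions that this rule picked are described. The regions near miRNAs and promoters, and the neighbourhoods of genes with 20 or more members, were chosen after their values were seen. Tables were read with Python 3.11.15 and pandas 2.3.3. Alternatives were quantile normalization, shifts to one median of all or of far regions, limma-voom on recovered reads, fits on only the groups compared, a level filter, other distance limits, a replicate block and leaving out each library.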

Additional observations from a re-analysis of the deposited data

Results flagged for a closer look

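In 11 far regions the effect of CpG given first differed between LPS and TNF as second stimulus by the test of the difference itself (limma, adjusted over all regions). The values below are the log2 difference of CL against ML minus that of CT against MT. The largest was 174 kb from Uaca, at -2.1 ± 0.23 (SE, adjusted p = 2.89e-06). There CL had 5.23 and 5.45 log2 CPM, against 5.07 and 4.80 in ML (difference 0.40), and CT had 5.42 and 5.72, against 3.11 and 3.02 in MT (difference 2.50). Near Rasgef1b the difference was -2.04 ± 0.28 (adjusted p = 8.73e-05), near Edn1, the gene of endothelin, -1.57 ± 0.22 (adjusted p = 9.17e-05), and near Ptger4, a prostaglandin receptor gene, -1.58 ± 0.25 (adjusted p = 0.000661). Near Eci2 it was -1.93 (adjusted p = 0.00139), near Myc -1.44 (adjusted p = 0.00321) and near Wnt7b -1.72 (adjusted p = 0.00988). Near H2al1j it was -1.57 (adjusted p = 0.0128), near Sgip1 -1.23 (adjusted p = 0.0206) and near Zfp386, inside the Igh locus, -1.4 (adjusted p = 0.0434).

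LPS alone had raised each of these 10 regions, by 0.97 to 2.75 in ML against MM, all past the test. TNF alone gave -0.27 to 0.64 in MT against MM, none past it. The values above thus also hold the higher level of ML than of MT in these regions. The CT libraries lay above the MT libraries in all 10, by 1.29 to 3.08. A single region went the other way, 63.9 kb from Brinp3, at 1.73 ± 0.38 (adjusted p = 0.0316). It had 2.86 and 3.04 in CL, against 1.79 and 2.00 in ML, and 1.61 and 1.81 in CT, against 2.10 and 2.67 in MT, and this result missed the threshold in 10 of the alternatives tried. Of the 10 regions with a negative value, only those near Uaca, Rasgef1b and Eci2 were checked one by one under the alternatives. In the 11 regions the corresponding differences of polyI:C did not pass the test.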

How the results depend on the processing

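None of the 83 results on single regions changed sign under the alternatives run, whereas the majority direction of the calls changed with the scale for ML, MP, CL, PL, CT and PT. Of the values answering a comparison, 285 stayed within the spread or within 1.5 times of the value reported and 32 moved beyond it. Leaving out each library in turn gave shares of far regions called of 22.2% to 36.9% for MC against MM, 16.3% to 35.6% for ML, 21.6% to 32.9% for MP and 4.84% to 11.0% for MT. It gave 6.97% to 22.9% for CL against ML, 13.0% to 31.8% for PL against ML, 10.5% to 25.1% for CT against MT and 15.7% to 33.5% for PT against MT. For the CpG difference of differences it gave 0.101% to 1.43%, and for that of polyI:C 0.0% to 0.302%. Where a group was left with 1 library, that library was assumed to vary like the other groups. With quantile normalization the MT share was 4.32% and the CpG difference of differences 0.141%. With only the groups compared in the fit, shares were 26.3% for CL, 16.4% for PT and 1.37% for the CpG difference of differences, which was 0.462% in limma-voom. With the replicate block, and both MP libraries kept, the shares were 33.1% for MC, 30.3% for ML, 40.2% for MP, 8.76% for MT, 26.4% for PL, 20.6% for CT and 29.1% for PT. The falls in MP then numbered 988, against 622 with the libraries averaged. Libraries with the same number did not deviate together: 5 of 36 pairs of groups had a correlation over 0.1 (range -0.358 to 0.242). The cause of these moves was not tested. For the 83 results on single regions, 2318 checks left the call as it was, 26 lost it and 4 gained it. A median far region held 33 to 62 reads, so small changes of weak regions were not detectable at this depth.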
